A study of Mus musculus with 9 samples.

Results

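Hearts of C57BL/6J mice taken on day 7 after birth (P7d) were compared with hearts taken at embryonic day 18.5 (E18.5d). It covered 13537 of the 48820 genes in the deposited table, namely those whose FPKM averaged 1 or more over the 6 hearts of these stages. FPKM counts the sequenced fragments of a gene per kilobase of its length and per 1e6 fragments of the library. As a level per length, it allows genes to be compared within a heart. Of the other 35283 genes, 22370 were listed at 0 in all 6 hearts. The gene nearest to the limit had a mean of 1 FPKM on the inner side and 0.998 FPKM on the outer side. Of the genes tested, 293 belonged to the 5 gene lists for which the study drew heatmaps (fatty acid oxidation, oxidative phosphorylation, glycolysis, ketone bodies and the cell cycle). The text below is about the other 13244 genes, and about their part in structure, signalling, cell types, RNA and protein turnover.

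The series holds 9 hearts, 3 at each of 3 stages, and the 3 hearts of day 1 after birth (P1d) entered only the estimate of the spread. All animals were labelled wild type (WT), male and without treatment. RNA was total RNA of the heart as the labels give it, and libraries were made with a NEBNext Ultra kit. The hearts are given as biological replicates. The labels do not say whether 1 sample held 1 heart or several, or whether littermates were used. A difference in the RNA of whole tissue can come from the number of cells of a type or from the RNA per cell, and these cannot be told apart here.

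Around birth the heart changes from the low oxygen and low load of the foetal circulation to the load of the left ventricle after birth. In this period cardiac muscle cells exchange foetal for adult isoforms of contractile proteins, build up the sarcoplasmic reticulum, and move from division to growth in size. Vessels and fibroblasts multiply in the same weeks. This is general knowledge of mouse heart development and not a result of these data.

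The depth of the 6 hearts, read from the steps between low FPKM values, was 25.5 to 37.5 times 1e6 fragments at E18.5d and 36.5 to 45.75 times 1e6 fragments at P7d. At the lowest of these depths, 3 fragments on a gene of 1 kilobase give 0.118 FPKM. All hearts were labelled male. In E18.5d replicates 1 and 3 and in P7d replicates 2 and 3, however, *Xist*, the RNA that silences an X chromosome, stood between 58.0 and 97.0 FPKM. In these 4 hearts the Y-linked *Ddx3y*, *Kdm5d*, *Uty* and *Eif2s3y* were listed at 0. Each stage held 2 such hearts and 1 other, and a fit with a term for *Xist* called 1638 genes higher and 4859 lower. The cardiac genes *Myh6*, *Actc1* and *Tnni3*, given below, stood high in every heart. The E18.5d hearts differed in RNA of neighbouring tissue. The sum of 9 lung and airway markers ran from 2.15 to 282 FPKM at E18.5d, with *Scgb3a2* at 53.2, 127 and 1 FPKM, and from 0.05 to 0.32 FPKM at P7d. Globin and other erythroid markers summed to 8471 to 22815 FPKM at E18.5d, highest in replicate 3, and to 8660 to 10518 FPKM at P7d.

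Genes were tested with limma on log2(FPKM + 1), and a log2 change below is the mean at P7d minus the mean at E18.5d on that scale. The scale makes the change of a low gene look smaller than it was. A gene under 1 FPKM at 1 stage was tested only because of its level at the other stage, which favours calls in that direction. An adjusted p is limma's p with Benjamini-Hochberg adjustment over the 13537 genes, with a threshold of 0.05. A second condition was set so that no gene is named on 1 scale or 1 heart alone. A gene is said to have risen or fallen only if it passed the threshold as deposited, after rescaling the hearts by median of ratios, and in each of 9 fits that left out 1 heart, always in the same direction. Standard deviations (SD) after ± are over 3 hearts. At the threshold alone 6775 genes (50.0%) were called, 1713 higher and 5062 lower at P7d. With median of ratios the split was nearly even, 2927 higher and 2869 lower. The 9 fits used the values as deposited, on which most genes moved down, so rises met the second condition less easily than falls. By that condition 1249 genes (9.23%) rose and 2805 (20.7%) fell, against 2927 and 2869 called with median of ratios. The surplus of falls thus depends on the scale. These shares are the background for every gene list below. The median log2 change over all genes was -0.18 as deposited and -0.02 with median of ratios, so a list median is given on both scales. All 1249 and 2805 genes also passed in the same direction in the fit with the term for *Xist*.

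**Figure D1:**
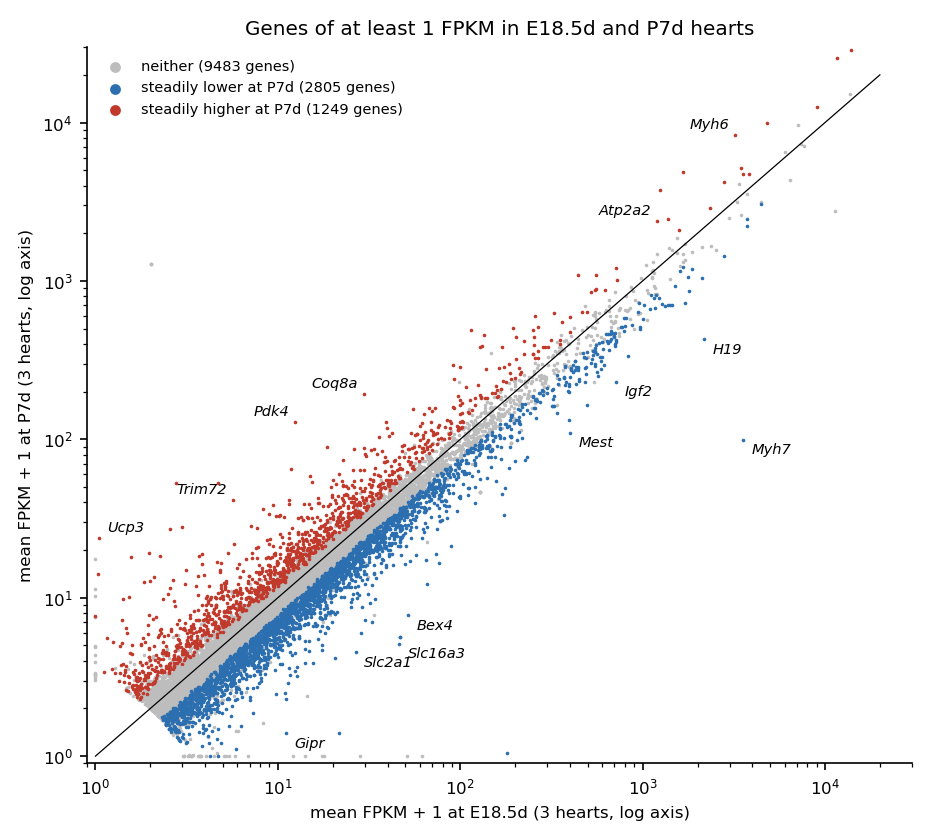
Mean FPKM + 1 of each gene at E18.5d (horizontal, log axis) and at P7d (vertical, log axis), each over 3 hearts, for the 13537 genes tested. Red points are the 1249 genes that rose (steadily higher in the key), blue points the 2805 that fell (steadily lower) and grey points the others, and the line marks equal means. *Ucp3* and *Pdk4* lie far above the line, and *Myh7* and *Gipr* far below it.

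The heavy chains of the thick filament moved in opposite directions, and its light chains moved in both. Of 17 thick filament genes tested, 8 rose and 4 fell, with a median log2 change of 0.20 (0.38 with median of ratios). *Myh6*, the fast heavy chain of the adult mouse ventricle, was at 3260, 3189 and 3209.7 FPKM in the E18.5d hearts and 7980.3, 8409 and 8564 FPKM in the P7d hearts. The P7d hearts lay close together and far above the E18.5d hearts, a rise of 2.58-fold (log2 change 1.37, standard error 0.07, adjusted p = 1.14e-06). *Myh7*, the slow heavy chain of the foetal ventricle, was at 3656, 3509.7 and 3517 FPKM in the E18.5d hearts and 143, 54.1 and 98.6 FPKM in the P7d hearts. Each P7d heart was far under the E18.5d hearts, with a spread that was wide beside its mean (log2 change -5.27, standard error 0.28, adjusted p = 1.23e-06). At E18.5d the heavy chains were at nearly equal levels, and at P7d *Myh6* stood far above *Myh7*. The light chains of the atria fell, *Myl4* from 1701 ± 129.9 to 730.1 ± 34.7 FPKM and *Myl7* from 2801 ± 341 to 1436 ± 93.1 FPKM. How much atrial tissue each sample held is not given, and its part was not tested. Of other light chains, *Myl3* rose (log2 change 0.60) and *Myl2* did not meet the conditions (0.13). *Myl9*, the regulatory light chain known from smooth muscle, fell from 829 ± 77.6 to 336 ± 33.3 FPKM. *Myom2*, a myomesin that crosslinks thick filaments at the M-band, was at 136, 141 and 122 FPKM in the E18.5d hearts and 476, 431 and 454 FPKM in the P7d hearts and rose 3.40-fold (log2 change 1.76, standard error 0.15, adjusted p = 2.22e-05). *Mybpc2*, the fast skeletal form of myosin-binding protein C, rose from 4.74 ± 0.37 to 10.0 ± 1.99 FPKM. *Myh6* (chr14:54941921-54966927 of GRCm38) and *Myh7* (chr14:54970684-54994626) are neighbours and close copies of each other, and how the authors' quantification split shared fragments is not given in the sources used here.

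In the thin filament, of 20 genes 4 rose and 4 fell, and the median was -0.09 (0.09 with median of ratios). The troponin I genes moved apart. *Tnni1*, the slow skeletal form used in foetal heart, was at 1829, 1862 and 1709 FPKM in the E18.5d hearts and 927, 859 and 800.4 FPKM in the P7d hearts, and all P7d hearts were under the E18.5d hearts (log2 change -1.06, standard error 0.08, adjusted p = 1.06e-05). *Tnni3*, the cardiac form, was at 2360.2, 2394 and 2278 FPKM in the E18.5d hearts and 2839, 2954 and 2909 FPKM in the P7d hearts, a smaller change in the other direction without overlap (log2 change 0.31, standard error 0.06, adjusted p = 0.00357). The main sarcomeric actin *Actc1* was at 7872, 7220.3 and 7107 FPKM in the E18.5d hearts and 6795, 7806 and 7369 FPKM in the P7d hearts, and its hearts overlapped (log2 change -0.02, adjusted p = 0.912). *Acta1*, the skeletal form of alpha-actin, was at 45.9, 43.5 and 47.0 FPKM in the E18.5d hearts and 38.6, 51.5 and 75.0 FPKM in the P7d hearts (adjusted p = 0.368). Its P7d hearts lay on either side of the E18.5d hearts. *Tmod4*, a cap of the pointed end of the filament, rose from 0.523 ± 0.146 to 2.18 ± 0.0954 FPKM, and *Nrap*, an anchoring protein of forming myofibrils, rose from 101 ± 1.54 to 129.6 ± 2.14 FPKM. The fast skeletal troponins *Tnnt3* and *Tnni2*, both low in the heart, fell from 2.67 ± 0.812 to 0.697 ± 0.447 FPKM and from 6.89 ± 1.04 to 3.55 ± 0.241 FPKM.

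Z-disc genes moved in both directions (7 rose and 6 fell of 19; median -0.15, 0.04 with median of ratios). *Xirp2*, an actin-binding protein of Z-discs and intercalated discs, was at 1.10, 1.22 and 1.73 FPKM in the E18.5d hearts and 8.39, 8.32 and 9.81 FPKM in the P7d hearts. Its lowest P7d heart was several times its highest E18.5d heart (log2 change 2.07, standard error 0.13, adjusted p = 2.79e-06). *Tcap*, or telethonin, which holds titin at the Z-disc, rose from 71.9 ± 0.845 to 157 ± 8.53 FPKM, and the LIM-domain protein *Fhl2* rose from 325 ± 12.2 to 626 ± 53.7 FPKM. *Smpx*, the small muscle protein of the X chromosome, fell from 396 ± 13.6 to 216 ± 1.48 FPKM. The actinin-binding *Pdlim3* fell from 72.7 ± 2.76 to 45.3 ± 1.66 FPKM and *Synpo2l* from 93.4 ± 4.85 to 68.9 ± 3.61 FPKM.

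The pump and the release channel of the sarcoplasmic reticulum rose, and *Casq1*, *Sln* and *Slc8a1* fell. Of 28 calcium handling genes, 9 rose and 3 fell (median 0.06, 0.24 with median of ratios). *Atp2a2*, the calcium pump of the sarcoplasmic reticulum, was at 1228, 1197 and 1192 FPKM in the E18.5d hearts and 2506, 2433 and 2181 FPKM in the P7d hearts. The stages did not overlap, and the mean rose 1.97-fold (log2 change 0.97, standard error 0.07, adjusted p = 6.33e-06). *Pln*, or phospholamban, the inhibitor of that pump, was at 528, 554 and 570.2 FPKM in the E18.5d hearts and 935, 885 and 864 FPKM in the P7d hearts (log2 change 0.70, standard error 0.06, adjusted p = 1.69e-05). *Sln*, or sarcolipin, the inhibitor of the same pump in atria and skeletal muscle, was at 476, 496 and 489 FPKM in the E18.5d hearts and 262, 256 and 254 FPKM in the P7d hearts. It was lower in each P7d heart, against the direction of the pump (log2 change -0.92, standard error 0.09, adjusted p = 3.39e-05). *Ryr2*, the calcium release channel, rose from 173 ± 4.25 to 284 ± 9.66 FPKM, and *Hrc*, a calcium-binding protein of the reticulum, rose from 60.7 ± 2.78 to 126 ± 0.531 FPKM. *Casq1*, the skeletal calsequestrin, fell from 64.2 ± 5.43 to 16.4 ± 1.99 FPKM, and *Slc8a1*, the sodium-calcium exchanger of the cell membrane, fell from 638 ± 6.90 to 416 ± 19.99 FPKM.

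Among ion channels and pumps, 11 of 22 rose and 1 fell, and the list median was 0.46 (0.59 with median of ratios). The pacemaker channels changed places. *Hcn2* was at 0.39, 0.52 and 0.28 FPKM in the E18.5d hearts and 6.18, 6.59 and 6.06 FPKM in the P7d hearts, and *Hcn4*, the channel of the sinus node and of foetal myocardium, was at 3.92, 3.52 and 3.69 FPKM in the E18.5d hearts and 2.44, 2.17 and 1.93 FPKM in the P7d hearts. *Hcn4* was the higher of these channels in each E18.5d heart and *Hcn2* in each P7d heart (log2 change 2.38, standard error 0.11, adjusted p = 6.14e-07 for *Hcn2*; log2 change -0.57, standard error 0.11, adjusted p = 0.00205 for *Hcn4*).

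**Figure D2:**
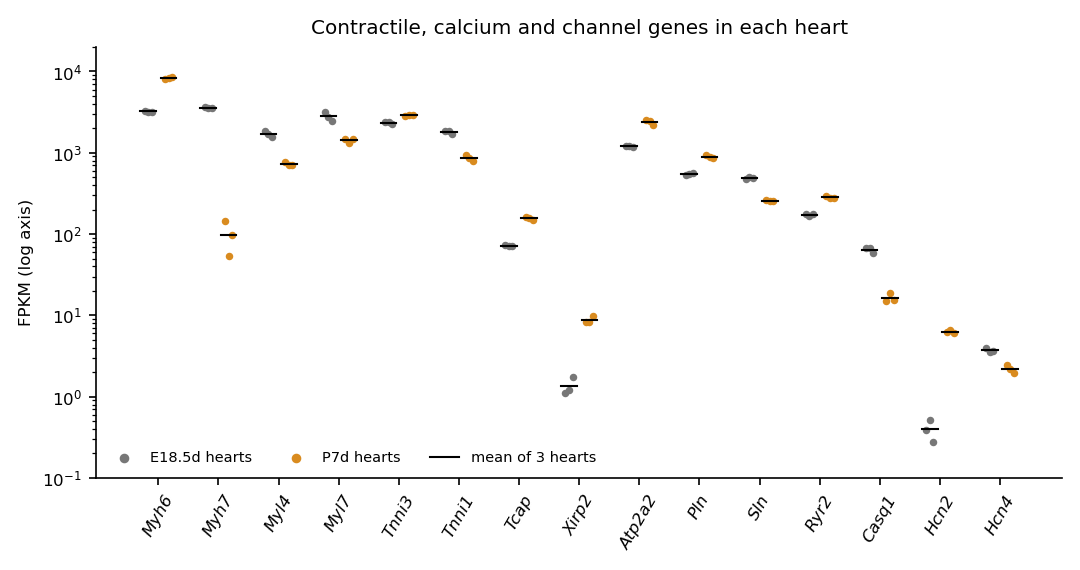
FPKM (log axis) of 15 contractile, calcium and channel genes in each of the 3 E18.5d hearts (grey) and 3 P7d hearts (orange), with a bar at the mean of each stage. In each gene shown the hearts of the stages do not overlap, and *Hcn2* and *Hcn4* change places.

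At the intercalated disc and the costamere, which fasten muscle cells to each other and to the matrix, 12 of 34 genes rose and 2 fell. The median was 0.03, 0.21 with median of ratios and -0.02 with columns of equal sum. The genes that rose the most belong to the laminin and dystroglycan link. *Itga7*, the laminin receptor of muscle, was at 6.95, 7.55 and 7.52 FPKM in the E18.5d hearts and 34.7, 37.2 and 34.8 FPKM in the P7d hearts, without overlap (log2 change 2.13, standard error 0.07, adjusted p = 1.48e-07). *Lama2*, the laminin chain of muscle basement membrane, rose from 52.9 ± 1.24 to 108 ± 2.09 FPKM, and *Sgca*, or alpha-sarcoglycan, rose from 14.3 ± 1.19 to 31.1 ± 2.53 FPKM. *Gja5*, the connexin of atria and conduction tissue, fell from 39.5 ± 2.69 to 17.5 ± 2.09 FPKM, and the integrin-linked kinase *Ilk* fell from 140.1 ± 11.1 to 106 ± 5.84 FPKM. *Gja1*, the main ventricular connexin, was at 206, 215 and 203 FPKM in the E18.5d hearts and 246, 233 and 230.2 FPKM in the P7d hearts. Its hearts did not overlap (adjusted p = 0.029), but the call was lost when any of 4 hearts was left out (E18.5d replicates 1 and 3, P7d replicates 1 and 2), so it is not counted.

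Of 21 collagen genes, 10 rose and 4 fell, with a median of 0.28 (0.46 with median of ratios). *Col15a1*, a collagen of basement membranes, was at 40.1, 39.1 and 36.5 FPKM in the E18.5d hearts and 112, 118 and 119.8 FPKM in the P7d hearts and rose 3.03-fold (log2 change 1.57, standard error 0.10, adjusted p = 4.24e-06). *Col5a3* rose from 3.94 ± 0.281 to 10.0 ± 0.337 FPKM and *Col8a1* from 0.983 ± 0.085 to 3.03 ± 0.257 FPKM. *Col12a1*, which binds to the surface of collagen fibrils, fell from 35.8 ± 2.68 to 13.5 ± 0.768 FPKM. *Col11a1* and *Col9a1*, collagens known from cartilage, fell from 6.17 ± 0.797 to 2.74 ± 0.191 FPKM and from 2.29 ± 0.0755 to 0.957 ± 0.163 FPKM. *Col1a1*, the main fibrillar collagen, was at 253, 259 and 251 FPKM in the E18.5d hearts and 304, 304 and 295 FPKM in the P7d hearts, higher in each P7d heart but not past the threshold (adjusted p = 0.105). With median of ratios its log2 change was 0.42 and passed. Of 33 other matrix genes, 9 rose and 5 fell (median -0.04, 0.14 with median of ratios). *Fbn2*, the fibrillin of foetal microfibrils, was at 68.6, 65.2 and 61.7 FPKM in the E18.5d hearts and 27.1, 26.4 and 27.1 FPKM in the P7d hearts (log2 change -1.24, standard error 0.06, adjusted p = 4.29e-07). *Thbs4* and the proteoglycan *Vcan* fell from 17.7 ± 1.3 to 7.58 ± 0.858 FPKM and from 63.5 ± 1.6 to 39.3 ± 3.002 FPKM. *Mfap5*, a microfibril protein, rose from 25.3 ± 2.67 to 53.7 ± 1.88 FPKM, *Prelp* rose from 5.86 ± 0.241 to 11.7 ± 0.439 FPKM, and *Loxl1*, an enzyme that crosslinks elastin, rose from 23.6 ± 2.35 to 41.4 ± 0.569 FPKM.

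Of 31 tubulins and actin regulators, 4 rose and 14 fell, with a median of -0.43 (-0.27 with median of ratios). *Tubb2b* was at 60.6, 61.0 and 59.9 FPKM in the E18.5d hearts and 19.9, 24.8 and 23.9 FPKM in the P7d hearts (log2 change -1.37, standard error 0.10, adjusted p = 9.77e-06). *Stmn1*, which destabilizes microtubules, fell from 216 ± 12.6 to 100.3 ± 8.14 FPKM, and the nuclear lamin *Lmnb1* fell from 52.7 ± 0.896 to 28.6 ± 3.78 FPKM. Rises were seen in 3 tubulins of other isotypes and in *Map4*, a microtubule-associated protein (log2 change 0.25). *Tuba4a* was at 42.6, 37.2 and 34.4 FPKM in the E18.5d hearts and 105, 143 and 133 FPKM in the P7d hearts, and *Tuba8* rose from 0.557 ± 0.232 to 17 ± 2.58 FPKM. *Tubb4a* rose from 2.42 ± 0.325 to 5.65 ± 0.383 FPKM. Tubulin genes are close copies of each other, so their levels are uncertain where fragments were shared.

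In insulin-like growth factor (IGF) signalling, the foetal ligand fell. Of 16 IGF and insulin genes outside the heatmap lists, 2 rose and 8 fell (median -0.40, -0.25 with median of ratios). *Igf2*, the foetal ligand, was at 692, 731 and 720.2 FPKM in the E18.5d hearts and 220.3, 243 and 229 FPKM in the P7d hearts. The hearts of each stage lay close together, and the mean fell 3.10-fold (log2 change -1.63, standard error 0.06, adjusted p = 2.39e-07). *Igf1*, the ligand of later growth, was at 8.76, 10.7 and 10.4 FPKM in the E18.5d hearts and 9.22, 10.9 and 10.8 FPKM in the P7d hearts and overlapped (log2 change 0.05, adjusted p = 0.72). At P7d the level of *Igf2* was still far above that of *Igf1*. Of the binding proteins, *Igfbp2* fell from 11.7 ± 2.50 to 2.20 ± 0.146 FPKM and *Igfbp7* rose from 54.4 ± 6.49 to 154 ± 11.4 FPKM. The glucose transporters moved in opposite directions. *Slc2a1*, the insulin-independent transporter of foetal heart, was at 25.9, 25.5 and 25.7 FPKM in the E18.5d hearts and 3.44, 4.19 and 2.98 FPKM in the P7d hearts (log2 change -2.57, standard error 0.11, adjusted p = 3.73e-07). *Slc2a4*, the insulin-dependent transporter, was at 26.4, 26.5 and 24.3 FPKM in the E18.5d hearts and 41.2, 44.0 and 37.4 FPKM in the P7d hearts (log2 change 0.65, standard error 0.09, adjusted p = 0.00043).

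Receptor tyrosine kinases and their ligands moved in both directions (7 rose and 8 fell of 31, median -0.02, 0.15 with median of ratios). *Fgf1*, a growth factor made by cardiac muscle cells, was at 11.0, 12.1 and 13.9 FPKM in the E18.5d hearts and 32.7, 33.0 and 28.7 FPKM in the P7d hearts (log2 change 1.29, standard error 0.10, adjusted p = 1.1e-05). Among the receptors, *Fgfr3* rose from 2.21 ± 0.176 to 4.16 ± 0.299 FPKM and *Fgfr2* fell from 11.2 ± 0.259 to 4.54 ± 0.427 FPKM. *Pdgfrb*, the receptor of pericytes, rose from 25.0 ± 1.23 to 42.8 ± 2.15 FPKM. The angiopoietins, ligands of the endothelial receptor Tie2, both fell, *Angpt1* from 6.81 ± 1.09 to 2.47 ± 0.248 FPKM and *Angpt2* from 4.85 ± 0.42 to 2.22 ± 0.0208 FPKM. In the TGF-beta and BMP list, 2 of 25 rose and 7 fell (median -0.24, -0.06 with median of ratios). Over all genes 9.23% rose and 20.7% fell. *Bmp7* was at 10.9, 12.3 and 12.1 FPKM in the E18.5d hearts and 2.40, 2.60 and 2.89 FPKM in the P7d hearts, with each P7d heart far under the lowest E18.5d heart (log2 change -1.81, standard error 0.10, adjusted p = 1.47e-06). *Bmp5* fell from 2.18 ± 0.146 to 0.74 ± 0.0608 FPKM, and *Id2*, a target of BMP signalling, fell from 35.0 ± 4.28 to 19.3 ± 1.04 FPKM. *Ltbp4*, which holds latent TGF-beta in the matrix, rose from 62.9 ± 4.50 to 111 ± 3.75 FPKM, and the receptor *Tgfbr2* rose from 22.2 ± 0.561 to 26.3 ± 0.67 FPKM, a call not made with columns of equal sum.

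Of 32 Notch, Wnt and Hippo genes, 2 rose and 7 fell (median -0.08, 0.09 with median of ratios). These shares were near those over all genes, of which 9.23% rose and 20.7% fell, so the genes below are single genes and not a change of the list. *Hey2*, a Notch target of the compact ventricular wall, was at 26.7, 31.4 and 28.7 FPKM in the E18.5d hearts and 6.92, 6.38 and 5.41 FPKM in the P7d hearts (log2 change -2.05, standard error 0.09, adjusted p = 4.99e-07). *Heyl*, a Notch target of mural cells, moved the other way, from 7.92 ± 0.35 to 14 ± 0.638 FPKM, as did the ligand *Jag2*, from 3.77 ± 0.259 to 6.45 ± 0.451 FPKM. *Tead2*, a partner of Yap in Hippo signalling, fell from 40.9 ± 0.86 to 20.7 ± 0.781 FPKM, and the Wnt antagonist *Sfrp1* fell from 27.3 ± 1.90 to 15.5 ± 0.541 FPKM.

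Of 28 hormone and neurohumoral genes, 10 rose and 8 fell (median 0.04, 0.18 with median of ratios). *Rxrg*, a retinoid X receptor that pairs with other nuclear receptors, was at 0.43, 0.47 and 0.34 FPKM in the E18.5d hearts and 9.12, 9.73 and 7.66 FPKM in the P7d hearts. It was under 0.5 FPKM in each E18.5d heart and high in all P7d hearts, a rise of 21.4-fold (log2 change 2.79, standard error 0.11, adjusted p = 2.39e-07). *Adra1b*, an alpha 1 adrenergic receptor, rose from 4.17 ± 0.52 to 11.8 ± 0.671 FPKM. *Klf9*, known to respond to thyroid hormone and glucocorticoid, rose from 4.11 ± 0.395 to 10.3 ± 0.805 FPKM, and *Fkbp5*, known to respond to glucocorticoid, fell from 14.7 ± 0.989 to 5.62 ± 0.888 FPKM. *Thra*, the main thyroid hormone receptor of the heart, was at 59.9, 59.0 and 57 FPKM in the E18.5d hearts and 68.6, 70.0 and 64.0 FPKM in the P7d hearts (adjusted p = 0.0572), and *Thrb*, under the limit on low values, was at 0.47, 0.47 and 0.59 FPKM in the E18.5d hearts and 1.66, 1.23 and 1.42 FPKM in the P7d hearts. Of the natriuretic peptides, *Nppa* was at 2204, 2146 and 1958 FPKM in the E18.5d hearts and 1032, 1033 and 1076 FPKM in the P7d hearts (log2 change -1.003, standard error 0.09, adjusted p = 3.08e-05), while *Nppb* was at 269.9, 216 and 278 FPKM in the E18.5d hearts and 106, 165 and 234 FPKM in the P7d hearts and overlapped (adjusted p = 0.134). *Npr3*, the clearance receptor of these peptides, fell from 19.5 ± 2.52 to 6.88 ± 1.12 FPKM.

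Of 33 cardiac transcription factors, 4 rose and 10 fell (median -0.12, 0.06 with median of ratios). *Gata4* was at 80.3, 76.4 and 80.2 FPKM in the E18.5d hearts and 77.7, 85.7 and 82.9 FPKM in the P7d hearts (adjusted p = 0.435), with overlapping hearts. *Nkx2-5* was at 38.1, 41.2 and 39.2 FPKM in the E18.5d hearts and 26.3, 29.8 and 29.4 FPKM in the P7d hearts and fell (log2 change -0.46, standard error 0.09, adjusted p = 0.00267), a call not made after rescaling to equal sums of protein-coding nuclear genes. Of the hypoxia-inducible factors, *Epas1*, known as HIF2alpha, was at 15.7, 15.6 and 15.9 FPKM in the E18.5d hearts and 36.6, 39.5 and 39.8 FPKM in the P7d hearts (log2 change 1.24, standard error 0.07, adjusted p = 1.47e-06), and *Hif3a* fell from 20.8 ± 1.41 to 0.41 ± 0.0721 FPKM. *Klf15* fell from 8.6 ± 0.729 to 3.99 ± 0.165 FPKM and *Tbx18*, a factor of epicardium and sinus node, from 9.14 ± 0.659 to 4.68 ± 0.0265 FPKM. *Irx3*, a factor of the conduction system, rose from 4.95 ± 0.317 to 9.83 ± 0.315 FPKM, and *Mef2d* rose from 24.7 ± 1.79 to 33.7 ± 0.994 FPKM.

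Of 18 clock genes, 9 rose and 2 fell (median 0.34, 0.50 with median of ratios). *Dbp*, an output gene of the clock, was at 7.46, 8.17 and 7.94 FPKM in the E18.5d hearts and 18.2, 15.4 and 17.8 FPKM in the P7d hearts (log2 change 1.03, standard error 0.11, adjusted p = 6.93e-05). The repressor *Nr1d1* rose from 3.60 ± 0.755 to 7.99 ± 0.219 FPKM. The genes that fell were period genes, which code for repressors of the clock. *Per1* was at 16.5, 18.6 and 17 FPKM in the E18.5d hearts and 8.54, 8.95 and 6.65 FPKM in the P7d hearts (log2 change -1.03, standard error 0.14, adjusted p = 0.000257), and *Per2* fell from 3.87 ± 0.105 to 2.48 ± 0.309 FPKM. The other period gene, *Per3*, was among those that rose, with a log2 change of 0.96 (1.12 with median of ratios). The time of day at which hearts were taken is not given in the sources used here, and its part in these values was not tested.

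Imprinted genes, expressed from the allele of 1 parent, fell as a group. Of 23 outside the heatmap lists, 1 rose and 20 fell, and the median was -1.21 (-1.03 with median of ratios), against a background of 20.7% of all genes that fell. The long RNA *H19* (chr7:142575529-142578143 of GRCm38), the neighbour of *Igf2* (chr7:142650766-142666816), was at 2274, 2233 and 2037 FPKM in the E18.5d hearts and 414, 413 and 460.4 FPKM in the P7d hearts, and the mean fell 5.09-fold (log2 change -2.34, standard error 0.07, adjusted p = 1.48e-07). *Mest* was at 423, 393 and 379 FPKM in the E18.5d hearts and 107, 109 and 112 FPKM in the P7d hearts, with a similarly narrow spread (log2 change -1.86, standard error 0.06, adjusted p = 1.48e-07). *Dlk1*, a Notch-like protein of foetal tissue whose values stand under a second identifier of the table as well, fell from 45.6 ± 1.72 to 4.62 ± 0.539 FPKM. *Igf2*, given above, belongs to this list too. *Snrpn*, a splicing protein, was the 1 gene that rose, from 14.6 ± 1.40 to 21.6 ± 0.863 FPKM.

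Among cell type markers, endothelial and fibroblast genes rose more often than they fell, and epicardial and atrial genes fell more often than they rose. Of 16 endothelial markers, 12 rose and 1 fell (median 0.51, 0.69 with median of ratios), and their sum was 894 to 948 FPKM at E18.5d and 1326 to 1427 FPKM at P7d. *Pecam1*, the general endothelial marker, was at 106, 99.2 and 91.4 FPKM in the E18.5d hearts and 126, 125 and 131 FPKM in the P7d hearts (log2 change 0.36, standard error 0.08, adjusted p = 0.00352). Genes high in capillaries rose as well. *Car4* was at 1.66, 2.31 and 2.39 FPKM in the E18.5d hearts and 13.3, 14.1 and 14.2 FPKM in the P7d hearts (log2 change 2.26, standard error 0.19, adjusted p = 2.09e-05), *Ly6c1* rose from 25.1 ± 4.54 to 85.8 ± 8.66 FPKM and *Rgcc* from 5.42 ± 0.936 to 13.8 ± 1.17 FPKM. *Emcn*, high in veins and endocardium, fell from 42.2 ± 2.34 to 24.4 ± 2.71 FPKM. None of the 7 endocardial markers tested rose and 4 fell (median -0.39, -0.23 with median of ratios), among them *Plvap*, from 30.2 ± 1.96 to 9.51 ± 0.214 FPKM, *Tmem108*, from 13.1 ± 0.641 to 5.87 ± 0.18 FPKM, and *Npr3*. Their sum went from 151 to 156 FPKM to 85.8 to 97.7 FPKM. Of 8 lymphatic markers, 2 rose and 4 fell (median -0.42, -0.27 with median of ratios). *Lyve1* was at 17.7, 16.7 and 15.2 FPKM in the E18.5d hearts and 3.41, 4.64 and 4.03 FPKM in the P7d hearts (log2 change -1.81, standard error 0.17, adjusted p = 4.25e-05), and *Mmrn1* and *Reln* fell from 3.48 ± 0.345 to 0.983 ± 0.126 FPKM and from 5.11 ± 0.422 to 2.78 ± 0.253 FPKM. *Prox1*, which cardiac muscle also expresses, rose from 18.7 ± 0.274 to 24.1 ± 0.298 FPKM, a call not made with columns of equal sum.

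Fibroblast markers rose in 9 of 16 genes and fell in none (median 0.56, 0.73 with median of ratios). Their sum was 1330 to 1354 FPKM at E18.5d and 1513 to 1598 FPKM at P7d. *Pi16*, a marker of adventitial fibroblasts, was at 3.27, 3.34 and 2.16 FPKM in the E18.5d hearts and 13.5, 12.6 and 12.9 FPKM in the P7d hearts (log2 change 1.85, standard error 0.16, adjusted p = 1.89e-05), and *Medag* rose from 3.06 ± 0.214 to 7.39 ± 0.641 FPKM. *Pdgfra*, the general fibroblast marker, was at 28.9, 28.1 and 26.6 FPKM in the E18.5d hearts and 27.1, 27.6 and 27.8 FPKM in the P7d hearts and overlapped (adjusted p = 0.932). Its log2 change was -0.02 as deposited and 0.16 with median of ratios. Epicardial markers moved the other way, with 8 of 11 lower and 1 higher (median -0.88, -0.71 with median of ratios). They summed to 105 to 122 FPKM and then to 77.7 to 89.0 FPKM. *Krt19* was at 22.3, 25.5 and 24.3 FPKM in the E18.5d hearts and 7.65, 8.49 and 8.90 FPKM in the P7d hearts (log2 change -1.42, standard error 0.18, adjusted p = 0.000207), *Upk3b* fell from 16.0 ± 1.76 to 6.47 ± 0.639 FPKM and the mucin *Muc16* from 3.57 ± 0.949 to 1.13 ± 0.176 FPKM. *Aldh1a2*, the enzyme that makes retinoic acid, was the epicardial marker that rose, from 12.7 ± 0.762 to 30.0 ± 1.57 FPKM. *Wt1* was at 7.61, 7.61 and 9.69 FPKM in the E18.5d hearts and 5.94, 6.18 and 7.77 FPKM in the P7d hearts (adjusted p = 0.0678), with overlapping hearts.

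Of 15 smooth muscle and pericyte markers, 6 rose and 1 fell (median 0.37, 0.53 with median of ratios). The sums of the stages overlapped, at 999 to 1212 FPKM and 1037 to 1123 FPKM. *Vtn*, or vitronectin, was at 0.81, 1.16 and 0.97 FPKM in the E18.5d hearts and 10.9, 13.2 and 11.1 FPKM in the P7d hearts, and *Rgs5*, a pericyte marker, at 30.5, 45.1 and 28.9 FPKM in the E18.5d hearts and 106, 98.9 and 104 FPKM in the P7d hearts. In neither gene did the stages overlap (log2 change 2.69, standard error 0.15, adjusted p = 1.5e-06 for *Vtn*; log2 change 1.56, standard error 0.14, adjusted p = 2.69e-05 for *Rgs5*). *Smtn*, a smooth muscle gene, rose from 30.9 ± 2.93 to 55.5 ± 1.64 FPKM. Other pericyte markers did not meet the conditions, with log2 changes of -0.08 for *Cspg4*, -0.31 for *Mcam*, 0.37 for *Higd1b* and 0.49 for *Notch3*. *Cnn1*, the calponin of smooth muscle, was at 34.2, 34.1 and 27.0 FPKM in the E18.5d hearts and 5.90, 5.90 and 6.24 FPKM in the P7d hearts (log2 change -2.22, standard error 0.11, adjusted p = 7.91e-07). *Myh11*, the smooth muscle heavy chain, was at 15, 21.5 and 10.8 FPKM in the E18.5d hearts and 14.8, 12.5 and 13.7 FPKM in the P7d hearts and overlapped (adjusted p = 0.633).

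Of 13 atrial and conduction markers, 1 rose and 8 fell (median -0.63, -0.45 with median of ratios), and their sum went from between 6664 and 7841 FPKM to between 3448 and 3677 FPKM. The gene that rose was *Cntn2*, a marker of Purkinje fibres, from 0.58 ± 0.156 to 1.75 ± 0.0781 FPKM. *Cntn2* reached the limit on low values only through its P7d hearts, which favoured a rise. How much of the atria each sample held is not given, and its part was not tested. Of 6 nerve markers tested, 0 rose and 3 fell. *Gap43*, of growing axons, fell from 4.24 ± 0.764 to 1.29 ± 0.108 FPKM, *Prph* from 2.69 ± 0.755 to 0.987 ± 0.177 FPKM and *Tubb3* from 3.08 ± 1.06 to 1.5 ± 0.296 FPKM. *Prph* reached the limit on low values only through its E18.5d hearts, which favoured a fall.

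The lymphocyte and neutrophil markers listed were low at both stages, and the macrophage, lymphocyte and neutrophil markers that moved rose. The 18 macrophage markers summed to 111 to 133 FPKM at E18.5d and to 141 to 151 FPKM at P7d. Of 14 macrophage markers tested, 3 rose and 0 fell (median 0.15, 0.32 with median of ratios). *Csf1r*, the receptor of the macrophage growth factor, was at 7.66, 7.71 and 6.57 FPKM in the E18.5d hearts and 11.0, 10.8 and 10.6 FPKM in the P7d hearts (log2 change 0.51, standard error 0.10, adjusted p = 0.0031), *Lyz2* rose from 15.3 ± 2.19 to 22.5 ± 1.31 FPKM and *Folr2* from 1.17 ± 0.327 to 2.46 ± 0.185 FPKM. *Ptprc*, the general leukocyte marker CD45, was at 1.55, 1.66 and 1.28 FPKM in the E18.5d hearts and 3.08, 2.03 and 2.67 FPKM in the P7d hearts (log2 change 0.52, standard error 0.13, adjusted p = 0.00815). The other lymphocyte markers tested, *Ighm* and *Igkc*, are immunoglobulin chains of B cells and rose as well, with *Ighm* at 0.58, 0.76 and 0.41 FPKM and then 4.38, 3.73 and 3.95 FPKM. *Ighm*, *Igkc* and the neutrophil marker *Ngp* reached the limit on low values only through their P7d hearts, which favoured a rise. The 16 lymphocyte markers summed to 3.51 to 4.31 FPKM at E18.5d and 11.9 to 13.01 FPKM at P7d, and *Cd3e* did not exceed 0.10 FPKM in any heart. Of 4 neutrophil markers, 2 rose and 0 fell, with *S100a9* at 4.65, 5.26 and 3.08 FPKM in the E18.5d hearts and 7.25, 9.41 and 10.9 FPKM in the P7d hearts and *Ngp* at 0.89, 0.46 and 0.24 FPKM in the E18.5d hearts and 1.6, 1.76 and 2.35 FPKM in the P7d hearts. Of the 9 erythroid genes tested 1 rose, and of the 2 platelet and 2 thymus genes none rose or fell.

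Some genes listed as markers of other tissues moved with stage, and the airway genes did not. Whether the RNA of those that moved came from these tissues was not tested. Of 5 skeletal muscle genes tested, 5 fell, among them *Pvalb*, from 2.89 ± 0.38 to 0.497 ± 0.386 FPKM, *Mylpf*, from 3.12 ± 0.426 to 0.757 ± 0.41 FPKM, and the perinatal heavy chain *Myh8*, from 5.02 ± 0.56 to 1.70 ± 0.237 FPKM. *Pvalb*, *Mylpf* and *Tnnt3* reached the limit on low values only through their E18.5d hearts, which favoured a fall. All 14 skeletal muscle markers summed to 18.4 to 25.0 FPKM at E18.5d and to 6.90 to 8.22 FPKM at P7d, with *Myod1* at 0 in each E18.5d heart. Liver markers summed to 45.7 to 51.3 FPKM and then to 20.99 to 23.2 FPKM. Of 4 tested, 2 fell, *Ahsg*, from 17.2 ± 0.953 to 5.01 ± 0.085 FPKM, and *Trf*, from 24.1 ± 5.77 to 13.2 ± 0.616 FPKM, which code for secreted proteins of the blood, and *Alb* was between 0.64 and 5.86 FPKM at E18.5d. Of 5 brown fat genes tested 3 rose. *Ucp1*, the uncoupling protein of brown fat, was listed at 0 in each E18.5d heart and stood at 5.77, 7.26 and 6.84 FPKM in the P7d hearts (adjusted p = 3.75e-05). It reached the limit on low values only through its P7d hearts, which favoured a rise. *Cidea* rose from 6.71 ± 1.11 to 26.7 ± 2.38 FPKM and *Cox8b*, which the heart also expresses, from 545 ± 10.2 to 875 ± 119 FPKM. *Elovl3* was at 0 in all 6 hearts and *Zic1* under 0.05 FPKM. Of the white fat genes outside the heatmap lists 1 was tested and rose, *Fabp4*, from 253 ± 5.50 to 393 ± 34.6 FPKM, which is also an endothelial gene. *Adipoq* did not exceed 1.01 FPKM. Of the 4 airway genes tested none rose or fell by the conditions above, and their RNA was in E18.5d replicates 1 and 2. The part of these tissues in the changes of other genes was not tested.

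**Figure D3:**
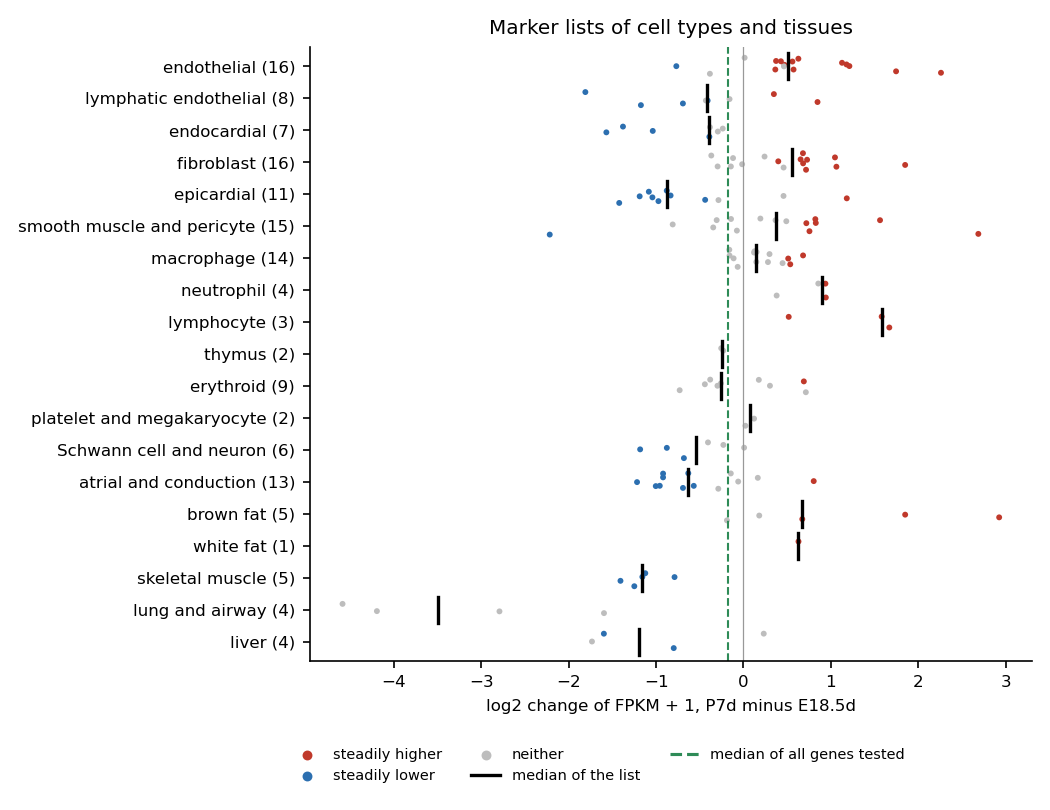
Log2 change (P7d minus E18.5d) of the tested members of 19 marker lists, 1 point per gene, with the number of genes after the name. Red points rose, blue points fell, black bars are list medians, and the dashed line is the median of all genes tested (-0.18). Endothelial and fibroblast points lie mostly to the right of that line and epicardial and atrial points to the left.

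Interferon-stimulated genes and genes of antigen presentation moved in opposite directions. Of 31 interferon-stimulated genes tested, 0 rose and 10 fell (median -0.29, -0.16 with median of ratios). *Rtp4* was at 7.91, 7.2 and 6.05 FPKM in the E18.5d hearts and 2.58, 1.52 and 1.82 FPKM in the P7d hearts (log2 change -1.45, standard error 0.14, adjusted p = 4.23e-05). *Isg15*, a ubiquitin-like modifier, was at 7.09, 7.48 and 4.23 FPKM in the E18.5d hearts and 1.69, 1.51 and 1.85 FPKM in the P7d hearts, with E18.5d replicate 3 below the other E18.5d hearts and above all P7d hearts (log2 change -1.41, standard error 0.17, adjusted p = 0.000163). *Oasl2* fell from 7.41 ± 1.91 to 2.59 ± 0.537 FPKM. The mean of the list relative to the 6 hearts was 0.28, 0.31 and -0.03 log2 units in the E18.5d hearts and -0.04, -0.25 and -0.25 in the P7d hearts. E18.5d replicate 3 thus stood near the P7d hearts, and the E18.5d hearts that were high are the pair with airway RNA, whose part in this result was not tested. By contrast, of 15 genes of MHC class I and antigen processing, 6 rose and 0 fell (median 0.33, 0.50 with median of ratios). *Psmb8*, a subunit of the immunoproteasome, was at 2.93, 2.32 and 1.82 FPKM in the E18.5d hearts and 5.69, 4.74 and 5.52 FPKM in the P7d hearts (log2 change 0.92, standard error 0.18, adjusted p = 0.00221). The peptide transporter *Tap2* rose from 1.83 ± 0.374 to 4.03 ± 0.4 FPKM and *H2-D1* from 17.6 ± 3.14 to 30.1 ± 2.45 FPKM, the latter a member of a family of close copies. Of 4 MHC class II genes tested, 3 rose and 0 fell. *H2-Aa* was at 0.8, 0.48 and 1.19 FPKM in the E18.5d hearts and 2.29, 2.31 and 2.52 FPKM in the P7d hearts. *H2-Aa* reached the limit on low values only through its P7d hearts, which favoured a rise. *Cd74* rose from 2.31 ± 0.418 to 5.10 ± 0.62 FPKM and *H2-Eb1* from 1.13 ± 0.36 to 2.46 ± 0.216 FPKM. Of 15 complement genes, 3 rose and 0 fell, namely *C1s1*, from 2.85 ± 1.29 to 8.03 ± 1.43 FPKM, the C1 inhibitor *Serping1*, from 18.9 ± 1.97 to 33.0 ± 2.44 FPKM, and *Cd59a*, from 14 ± 0.0961 to 19.4 ± 0.972 FPKM.

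Among genes that make, process and destroy RNA, those of the spliceosome core and of ribosome synthesis fell more often than the background of 20.7%, and RNA decay genes fell in a share near it. The spliceosome core had 15 of 30 genes lower and 0 higher (median -0.40, -0.23 with median of ratios). *Snrpd1*, a Sm protein of the spliceosome, was at 64.7, 62.4 and 61.2 FPKM in the E18.5d hearts and 26.8, 27.5 and 31.6 FPKM in the P7d hearts (log2 change -1.11, standard error 0.13, adjusted p = 0.000159), and its partners *Snrpf* and *Snrpe* fell from 39.6 ± 1.52 to 17.8 ± 2.30 FPKM and from 115 ± 13.1 to 58.1 ± 2.61 FPKM. Of 30 splicing regulators, 3 rose and 9 fell (median -0.24, -0.06 with median of ratios). *Tra2a* fell from 36.4 ± 1.59 to 18.7 ± 0.916 FPKM, *Hnrnpa1* from 189 ± 4.80 to 103 ± 8.30 FPKM and *Srsf7* from 28.3 ± 0.781 to 15.9 ± 0.822 FPKM. *Rbfox1*, a splicing factor of muscle and neurons, was at 1, 1.29 and 1 FPKM in the E18.5d hearts and 4.56, 3.70 and 3.65 FPKM in the P7d hearts and rose 3.62-fold (log2 change 1.24, standard error 0.11, adjusted p = 1.96e-05). *Srsf5* rose from 129.7 ± 3.33 to 182 ± 16.8 FPKM, and *Mbnl1*, a factor of the foetal to adult switch in splicing, rose from 40.2 ± 1.07 to 46.9 ± 2.32 FPKM, a call not made with columns of equal sum. *Rbm20*, which sets the splicing of titin, was at 101, 95.6 and 109.9 FPKM in the E18.5d hearts and 109, 114 and 120.2 FPKM in the P7d hearts and overlapped (adjusted p = 0.0691).

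Of 40 ribosome biogenesis genes, 24 fell and 0 rose (median -0.45, -0.28 with median of ratios). *Npm1*, a nucleolar protein that chaperones ribosome assembly, was at 134, 149 and 155 FPKM in the E18.5d hearts and 62.8, 64.4 and 71.3 FPKM in the P7d hearts (log2 change -1.13, standard error 0.07, adjusted p = 3.05e-06). *Gnl3* fell from 9.23 ± 0.527 to 4.35 ± 0.366 FPKM and *Nop58*, of the snoRNA complex that methylates ribosomal RNA, from 29.2 ± 3.52 to 14.8 ± 0.662 FPKM. Of 47 RNA decay genes, 1 rose and 12 fell (median -0.24, -0.08 with median of ratios), among them the exosome genes *Exosc8*, from 19.98 ± 1.27 to 11.6 ± 0.434 FPKM, and *Dis3*, from 10.9 ± 0.235 to 6.37 ± 0.946 FPKM, and the nonsense-mediated decay factor *Upf2*, from 4.28 ± 0.744 to 2.52 ± 0.00577 FPKM. Of 26 genes of mRNA modification and polyadenylation, 10 fell and 0 rose (median -0.34, -0.17 with median of ratios). The cleavage factors *Nudt21* and *Cstf3* fell from 21.4 ± 1.40 to 12.5 ± 1.17 FPKM and from 14.9 ± 1.64 to 9.26 ± 1.34 FPKM, and the poly(A)-binding protein *Pabpc1* from 189 ± 13.8 to 115 ± 11.1 FPKM. Among 23 oncofoetal RNA-binding and chromatin genes, 12 fell and 0 rose (median -0.53, -0.35 with median of ratios). The whole family of *Igf2* mRNA-binding proteins fell. *Igf2bp1* was at 11.2, 10.2 and 8.35 FPKM in the E18.5d hearts and 1.77, 1.8 and 0.99 FPKM in the P7d hearts (log2 change -2.12, standard error 0.17, adjusted p = 1.64e-05), *Igf2bp2* fell from 15.1 ± 1.32 to 5.61 ± 0.457 FPKM and *Igf2bp3* from 13.1 ± 0.395 to 4.32 ± 0.648 FPKM. *Lin28b*, an inhibitor of let-7 maturation under the limit on low values, was at 0.38, 0.36 and 0.55 FPKM in the E18.5d hearts and 0.25, 0.17 and 0.21 FPKM in the P7d hearts.

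Most cytosolic ribosomal protein genes fell. Of 80 cytosolic ribosomal protein genes, 66 fell and 1 rose (median -0.63, -0.45 with median of ratios). *Rpl31* was at 621, 608 and 622 FPKM in the E18.5d hearts and 303, 291 and 285 FPKM in the P7d hearts (log2 change -1.07, standard error 0.08, adjusted p = 8.74e-06), and *Rpl36a* and *Rps15a* fell by similar amounts, from 589.9 ± 35.2 to 277 ± 7.03 FPKM and from 562 ± 41.9 to 264 ± 14.8 FPKM. The gene that rose was *Rpl3l*, the form of Rpl3 specific to heart and skeletal muscle, at 1.86, 1.19 and 2.19 FPKM in the E18.5d hearts and 6.76, 8.30 and 8.37 FPKM in the P7d hearts (log2 change 1.69, standard error 0.14, adjusted p = 1.67e-05). Of 77 mitochondrial ribosomal protein genes, 34 fell and 0 rose (median -0.32, -0.14 with median of ratios), with the largest falls in *Mrps25*, from 26.5 ± 2.07 to 13.1 ± 1.92 FPKM, *Mrps22*, from 30.7 ± 1.8 to 17 ± 1.01 FPKM, and *Mrpl52*, from 119 ± 8.20 to 67.4 ± 2.01 FPKM. Short genes fell more than long genes in these hearts. Protein-coding genes with up to 1000 bases of exons had a median of -0.37 and 29.1% of them fell, against -0.15 and 20.1% of those over 2000 bases, and the part of length in these lists was not tested. Of the 35 cytosolic ribosomal protein genes over 2000 bases, 30 fell, with a median of -0.64. Ribosomal protein genes have many processed copies in the genome that could share their fragments.

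Of 65 translation factors, 2 rose and 22 fell (median -0.30, -0.12 with median of ratios). *Eef1b2* was at 204, 216 and 204 FPKM in the E18.5d hearts and 115, 109 and 107 FPKM in the P7d hearts (log2 change -0.91, standard error 0.07, adjusted p = 1.61e-05), and *Eif1a* and *Eef1e1* fell from 13.2 ± 0.982 to 6.87 ± 0.28 FPKM and from 19.6 ± 2.56 to 10.6 ± 1.15 FPKM. The genes that rose are the muscle elongation factor *Eef1a2*, from 166 ± 3.98 to 208 ± 14.3 FPKM, and *Eif4e3*, from 6.09 ± 0.236 to 10.6 ± 0.157 FPKM. Of 20 aminoacyl-tRNA synthetases, 8 fell and 0 rose (median -0.32, -0.15 with median of ratios), led by *Gars*, from 78.3 ± 4.52 to 47.5 ± 0.573 FPKM, *Rars*, from 36.5 ± 0.663 to 23.1 ± 1.59 FPKM, and *Eprs*, from 44.8 ± 1.17 to 32.3 ± 2.01 FPKM. Of 19 genes of the integrated stress response and serine synthesis, 9 fell and 0 rose (median -0.41, -0.26 with median of ratios). *Psat1*, an enzyme of serine synthesis, was at 24.8, 26.8 and 21.6 FPKM in the E18.5d hearts and 8.88, 8.84 and 8.77 FPKM in the P7d hearts (log2 change -1.36, standard error 0.08, adjusted p = 1.7e-06). *Asns* and *Mthfd2* fell from 7.54 ± 1.22 to 3.05 ± 0.219 FPKM and from 7.52 ± 0.861 to 3.20 ± 0.579 FPKM.

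**Figure D4:**
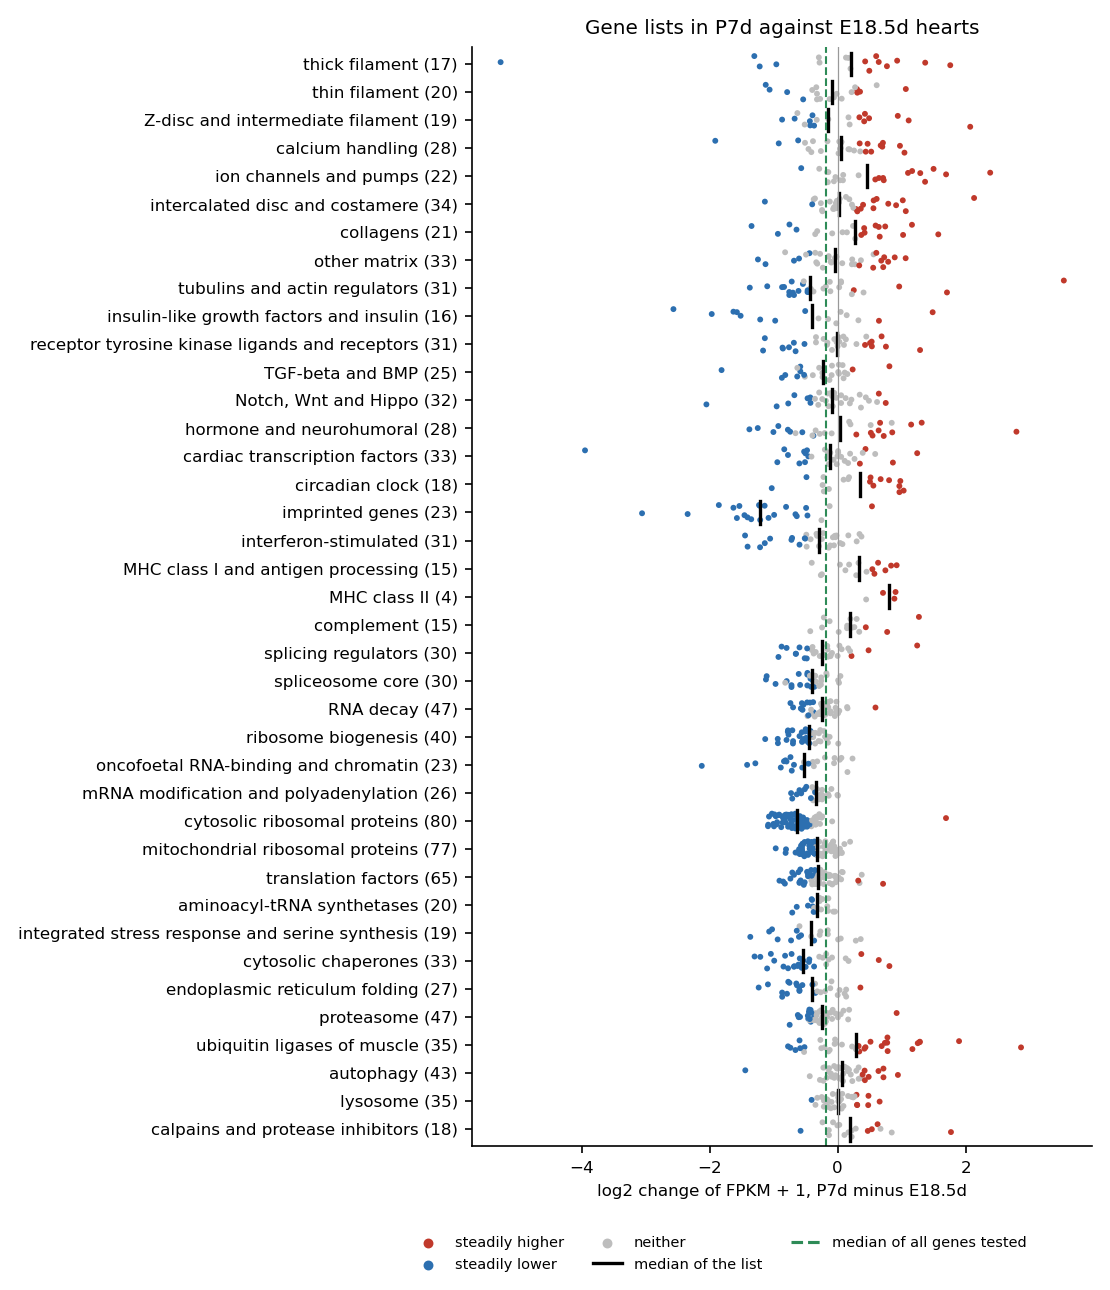
Log2 change (P7d minus E18.5d) of the tested members of 39 gene lists, 1 point per gene, with the number of genes after the name. Colours, bars and dashed line are as in the plot of cell types. The medians of imprinted genes and cytosolic ribosomal proteins lie to the left of that of all genes, and those of ion channels and the ubiquitin ligases of muscle to the right.

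Genes of protein folding fell in the cytosol and in the endoplasmic reticulum (ER), where chaperones help new proteins to fold. Of 33 genes in the cytosolic chaperone list, which also holds the mitochondrial *Hspd1* and *Hspe1*, 3 rose and 22 fell (median -0.54, -0.36 with median of ratios). *Hsp90aa1*, the inducible Hsp90, was at 72.3, 83.8 and 93.0 FPKM in the E18.5d hearts and 36.5, 41.2 and 41.2 FPKM in the P7d hearts (log2 change -1.04, standard error 0.09, adjusted p = 2.78e-05), and *Hspa8*, the constitutive Hsp70, at 1120.5, 1139.8 and 1203 FPKM in the E18.5d hearts and 728, 798 and 822 FPKM in the P7d hearts (log2 change -0.56, standard error 0.06, adjusted p = 0.000111). *Hspe1*, the mitochondrial chaperonin partner of *Hspd1*, fell from 138 ± 4.55 to 55.7 ± 2.59 FPKM, *Hsph1* from 16.1 ± 2.53 to 6.46 ± 1.63 FPKM and the small heat shock protein *Hspb3* from 24.1 ± 1.05 to 10.7 ± 1.01 FPKM. The 3 that rose were the small heat shock proteins *Hspb6*, from 46.9 ± 2.10 to 83.0 ± 4.12 FPKM, and *Hspb8*, from 31.7 ± 0.332 to 50.2 ± 3.29 FPKM, and their partner *Bag3*, from 22.4 ± 1.32 to 29.2 ± 1.28 FPKM. Small heat shock proteins did not rise as a family. *Hspb1* fell from 321 to 161 FPKM and *Cryab* fell (log2 change -0.37), while *Hspb7* did not meet the conditions (0.13). Of 27 genes of ER folding, 1 rose and 15 fell (median -0.39, -0.21 with median of ratios). *Sdf2l1* was at 9.97, 8.59 and 8.45 FPKM in the E18.5d hearts and 3.29, 3.40 and 3.05 FPKM in the P7d hearts (log2 change -1.23, standard error 0.10, adjusted p = 1.19e-05). *Manf* fell from 68.5 ± 11.4 to 31.4 ± 1.14 FPKM, with E18.5d replicate 3 above the other hearts, and *Hsp90b1*, the Hsp90 of the ER, fell from 188 ± 17.6 to 103 ± 5.08 FPKM. *Fkbp10*, a chaperone of collagen, was the 1 that rose, from 39.2 ± 4.12 to 50.4 ± 3.01 FPKM.

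The promoters of these folding genes were searched for the elements known to bind stress factors, in RefSeq promoters of GRCm38.p6 (250 bases before to 50 after a gene's start). The ER stress response element, searched on both strands as CCAAT and CCACG with 9 free bases between, stood in 8 of the 22 ER folding genes with a promoter in the table, against 0.164% of the 9754 tested genes with one and 0.119% of all promoters. Of the 14 that fell it stood in 6, and of the 8 that did not in 2, *Dnajc3* and *Syvn1*. The 6 that fell are shown, and *Dnajc3* and *Syvn1* hold the same letters. For this element and those below, a high share describes which genes were put in the list, and not their change between stages. Whether an element goes with a fall was not tested. Each line gives the element in capitals with 12 bases on either side, read 5′ to 3′ on the strand of the gene, and in *Calr* and *Creld2* it lies in the opposite sense. A match is a description of letters and not a bound site.
Hspa5, chr2:34772013-34772055, plus strand: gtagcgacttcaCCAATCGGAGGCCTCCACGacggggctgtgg
Hsp90b1, chr10:86705626-86705668, minus strand: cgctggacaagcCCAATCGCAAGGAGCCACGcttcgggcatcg
Pdia6, chr12:17266479-17266521, plus strand: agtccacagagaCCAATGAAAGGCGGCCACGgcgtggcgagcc
Canx, chr11:50325788-50325830, minus strand: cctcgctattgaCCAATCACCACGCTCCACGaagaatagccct
Calr, chr8:84847063-84847105, minus strand: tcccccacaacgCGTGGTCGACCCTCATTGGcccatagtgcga
Creld2, chr15:88819508-88819550, plus strand: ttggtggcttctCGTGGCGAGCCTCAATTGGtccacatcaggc

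The genes with this element were picked for it after their values were seen. *Hspa5*, the Hsp70 of the ER, was at 163, 168 and 185 FPKM in the E18.5d hearts and 106, 99.8 and 95.2 FPKM in the P7d hearts (log2 change -0.77, standard error 0.08, adjusted p = 5.63e-05). The lectin chaperones *Calr* and *Canx* fell from 319.9 ± 4.29 to 206 ± 2.82 FPKM and from 179 ± 10.3 to 118 ± 10.7 FPKM, the disulfide isomerase *Pdia6* from 111 ± 1.26 to 60.5 ± 1.81 FPKM and *Creld2* from 15.1 ± 1.17 to 9.65 ± 0.504 FPKM. Of the genes with the element that did not fall, *Dnajc3* was at 11.0 ± 0.52 at E18.5d and 8.41 ± 0.746 FPKM at P7d and *Syvn1* at 4.25 ± 0.572 at E18.5d and 4.24 ± 0.214 FPKM at P7d. In the cytosolic list, the heat shock element, searched on both strands as GAA, TTC and GAA with 2 free bases between neighbours, stood in 3 of 27 genes with a promoter, against 0.574% of tested genes. It stood in 3 of the 16 that fell and in 0 of the 11 that did not. The 3 were *Hsph1* and the mitochondrial *Hspe1* and *Hspd1*, the last of which fell from 208 ± 6.29 to 138 ± 2.46 FPKM. *Hspe1* and *Hspd1* share 1 promoter between them. They are shown as the pair that is read in opposite directions from the same bases and as the single gene beside it.
Hspe1 and Hspd1, chr1:55088047-55088083, plus strand: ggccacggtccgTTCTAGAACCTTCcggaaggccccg
Hsph1, chr5:149636276-149636312, minus strand: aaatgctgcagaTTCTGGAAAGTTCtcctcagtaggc

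The interferon-stimulated response element, GAAA and GAAA with 2 free bases between, was found in 14 of 24 interferon-stimulated genes with a promoter, against 3.50% of tested genes. The element stood in 3 of the 8 that fell (*Isg15*, *Bst2* and *Ddx58*) and in 11 of the 16 that did not. *Isg15*, whose fall is given above, holds 3 overlapping copies, of which the middle 1 is in capitals here.
Isg15, chr4:156200869-156200902, minus strand: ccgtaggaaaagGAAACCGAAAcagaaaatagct

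In protein destruction, proteasome genes fell in a share near the background of 20.7%. Of 47 proteasome genes, 1 rose and 13 fell (median -0.25, -0.08 with median of ratios), and the gene that rose was the immune subunit *Psmb8* given above. The largest falls were those of assembly factors: *Pomp* was at 68.9, 52.6 and 51.8 FPKM in the E18.5d hearts and 36.4, 35.2 and 29.8 FPKM in the P7d hearts (log2 change -0.75, standard error 0.12, adjusted p = 0.000983), and *Psmg1* and *Psmg4* fell from 21.8 ± 1.61 to 13.8 ± 1.52 FPKM and from 18.1 ± 1.12 to 11.5 ± 1.07 FPKM. Of 35 ubiquitin ligases and adaptors of muscle, 16 rose and 6 fell (median 0.29, 0.44 with median of ratios). *Trim72*, or MG53, known for repair of the muscle membrane, was at 4.64, 4.89 and 4.56 FPKM in the E18.5d hearts and 40.6, 38.3 and 42.8 FPKM in the P7d hearts, and the mean rose 8.64-fold (log2 change 2.87, standard error 0.10, adjusted p = 1.48e-07). *Asb14* was at 2.31, 2.94 and 2.65 FPKM in the E18.5d hearts and 16.9, 10.1 and 11.4 FPKM in the P7d hearts, with P7d replicate 1 above the others (log2 change 1.90, standard error 0.18, adjusted p = 3.53e-05). *Trim7* rose from 1.34 ± 1.17 to 4.29 ± 0.479 FPKM, with E18.5d replicate 1 above the other E18.5d hearts. The ligases known from muscle wasting rose less. *Trim63*, or MuRF1, was at 93.0, 94.9 and 97.6 FPKM in the E18.5d hearts and 127, 119 and 116 FPKM in the P7d hearts (log2 change 0.34, standard error 0.07, adjusted p = 0.0041), and *Fbxo32*, or atrogin-1, at 6.35, 6.96 and 7.51 FPKM in the E18.5d hearts and 11.8, 8.46 and 11.0 FPKM in the P7d hearts (log2 change 0.51, standard error 0.11, adjusted p = 0.0048). *Fbxo30*, *Nedd4l* and *Asb4* fell from 18.9 ± 1.3 to 10.7 ± 1.27 FPKM, from 13.1 ± 0.388 to 7.47 ± 0.226 FPKM and from 7.73 ± 0.418 to 4.53 ± 0.411 FPKM.

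Of 43 autophagy genes, 8 rose and 1 fell (median 0.07, 0.24 with median of ratios). *Pink1*, the kinase that marks damaged mitochondria, was at 34.8, 33.9 and 30.5 FPKM in the E18.5d hearts and 69.8, 63.0 and 60.6 FPKM in the P7d hearts (log2 change 0.94, standard error 0.10, adjusted p = 5.78e-05), and *Bnip3*, a mitophagy receptor induced by hypoxia, at 81.8, 72.5 and 65.8 FPKM in the E18.5d hearts and 29.3, 25.0 and 24.7 FPKM in the P7d hearts (log2 change -1.44, standard error 0.18, adjusted p = 0.000214). These genes of mitochondrial removal moved in opposite directions. *Wipi1* rose from 18.4 ± 0.89 to 30.8 ± 1.39 FPKM and *Map1lc3a*, an LC3 protein of autophagosomes, from 102 ± 3.40 to 169 ± 23.2 FPKM. *Sqstm1*, the cargo receptor p62, was at 91.1, 89.9 and 84.0 FPKM in the E18.5d hearts and 111, 107 and 115 FPKM in the P7d hearts and did not pass the threshold (adjusted p = 0.0836). Of 35 lysosome genes, 6 rose and 1 fell (median 0.00, 0.17 with median of ratios and -0.04 with columns of equal sum). *Ctsf* rose from 8.49 ± 0.336 to 14 ± 0.732 FPKM, *Npc1* from 12.4 ± 0.607 to 17.7 ± 0.648 FPKM and *Psap* from 187 ± 10.4 to 260.5 ± 12.3 FPKM, and *Npc2* fell from 25.9 ± 1.51 to 19.3 ± 0.666 FPKM. Of 18 calpains, convertases and protease inhibitors, 4 rose and 1 fell (median 0.19, 0.37 with median of ratios). *Pcsk6*, a proprotein convertase, was at 7.95, 7.28 and 11.1 FPKM in the E18.5d hearts and 31.0, 32.2 and 32.6 FPKM in the P7d hearts (log2 change 1.77, standard error 0.14, adjusted p = 1.36e-05). The cysteine protease inhibitors parted, with *Cst3* rising from 224 ± 14 to 346 ± 26.3 FPKM and *Cstb* falling from 39.6 ± 1.82 to 26.2 ± 0.272 FPKM, and *Capn1* rose from 7.2 ± 0.52 to 10.9 ± 0.487 FPKM.

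**Figure D5:**
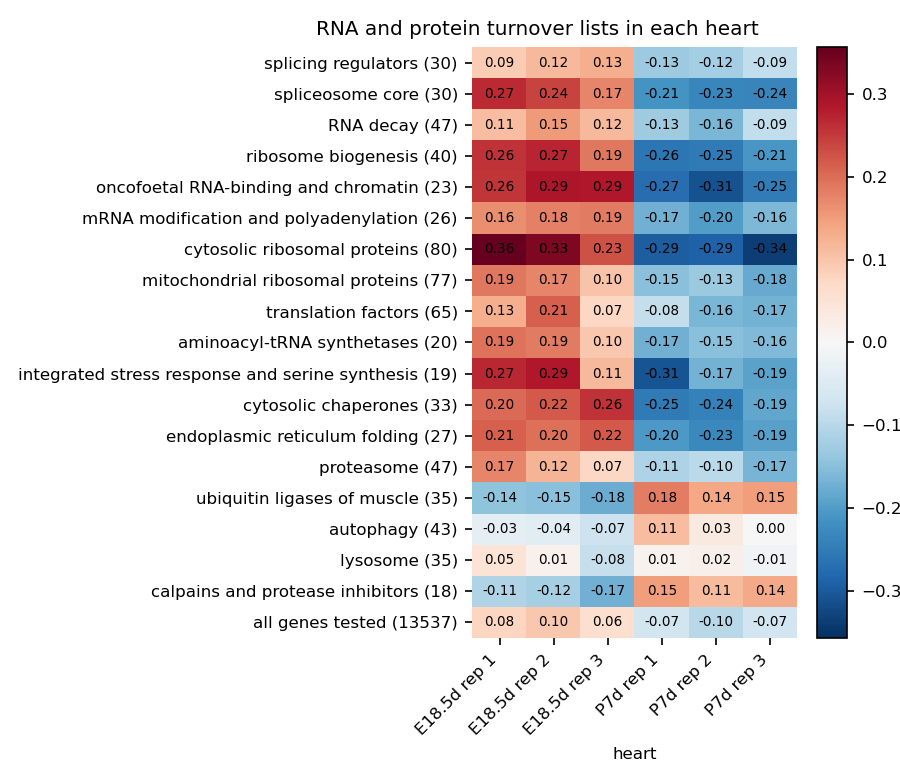
Mean over the genes of each RNA and protein turnover list of log2(FPKM + 1), after subtraction of the gene's own 6-heart mean, for each heart (columns) and list (rows, number of genes after the name). In the cytosolic ribosomal protein list the E18.5d hearts stand at 0.23 to 0.36 and the P7d hearts at -0.34 to -0.29, against 0.06 to 0.10 and -0.10 to -0.07 over all genes tested.

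Among the 15 largest rises outside all lists were genes with a role in fuel use. *Pdk4*, the kinase that inhibits pyruvate dehydrogenase, was at 11.2, 11.2 and 12.1 FPKM in the E18.5d hearts and 135, 117 and 132 FPKM in the P7d hearts (log2 change 3.37, standard error 0.15, adjusted p = 3.73e-07). *Angptl4*, an inhibitor of lipoprotein lipase, was at 1.69, 2.17 and 2.14 FPKM in the E18.5d hearts and 31.4, 25.6 and 23.4 FPKM in the P7d hearts (log2 change 3.21, standard error 0.20, adjusted p = 3.04e-06). *Slc25a34*, a mitochondrial carrier, rose from 0.977 ± 0.264 to 18.3 ± 1.12 FPKM, and *Coq8a*, a gene of coenzyme Q synthesis, rose from 28.6 ± 3.78 to 191 ± 33.9 FPKM. Among the uncoupling proteins *Ucp2* was at 10.8, 11.2 and 10.5 FPKM in the E18.5d hearts and 64.9, 65.8 and 61.3 FPKM in the P7d hearts (log2 change 2.46, standard error 0.10, adjusted p = 3.19e-07), and *Ucp3* rose from 0.0467 ± 0.0379 to 22.8 ± 3.48 FPKM. *Gpd1*, the cytosolic glycerol-3-phosphate dehydrogenase, rose from 1.67 ± 0.361 to 11.9 ± 1.17 FPKM, *Fbp2*, the muscle fructose bisphosphatase, from 0.03 ± 0.03 to 13.1 ± 1.55 FPKM, and the desaturase *Scd4* from 3.67 ± 0.37 to 51.8 ± 1.45 FPKM. Genes with other roles rose too. *Mapt*, the microtubule protein tau, was at 0.58, 0.78 and 1.15 FPKM in the E18.5d hearts and 13.2, 10.9 and 10.9 FPKM in the P7d hearts and rose 13.9-fold (log2 change 2.79, standard error 0.15, adjusted p = 1.14e-06). *Myh14*, a nonmuscle myosin heavy chain, rose from 0.52 ± 0.1 to 9.09 ± 0.692 FPKM. *Ankrd23*, an ankyrin repeat protein of the sarcomere, rose from 17.6 ± 1.51 to 88.6 ± 11.1 FPKM. The metalloreductase *Steap4* rose from 2.86 ± 0.136 to 17.9 ± 0.458 FPKM, *Paqr9* from 1.10 ± 0.186 to 12.5 ± 0.375 FPKM and the secretoglobin *Scgb1c1* from 1.26 ± 0.436 to 17.4 ± 3.26 FPKM.

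Among the falls outside the lists were receptors and genes of foetal tissue. *Gipr*, the receptor of the gut hormone GIP, was at 9.48, 10.3 and 10.5 FPKM in the E18.5d hearts and 0.37, 0.43 and 0.39 FPKM in the P7d hearts, and the mean fell 25.5-fold (log2 change -2.99, standard error 0.10, adjusted p = 1.48e-07). *Agtr2*, the angiotensin receptor of foetal tissues, was at 4.43, 6.67 and 4.79 FPKM in the E18.5d hearts and 0.51, 0.61 and 0.53 FPKM in the P7d hearts (log2 change -2.01, standard error 0.28, adjusted p = 0.000331). *Slc16a3*, the lactate transporter MCT4, fell from 45.3 ± 3.8 to 4.11 ± 0.49 FPKM. *Bex1*, of a small gene family of the X chromosome, was at 85.9, 90.3 and 88.8 FPKM in the E18.5d hearts and 17.1, 19.6 and 23.9 FPKM in the P7d hearts (log2 change -2.09, standard error 0.10, adjusted p = 8.9e-07). *Bex4*, of the same family, was at 46.5, 55.6 and 50.1 FPKM in the E18.5d hearts and 6.02, 8.10 and 6.16 FPKM in the P7d hearts and had no overlap either (log2 change -2.74, standard error 0.11, adjusted p = 3.19e-07). *Tceal5*, of a related family, fell from 8.77 ± 3.52 to 1.46 ± 0.15 FPKM. *Cited1*, a transcriptional coregulator, fell from 75.2 ± 5.84 to 15.7 ± 1.87 FPKM, and *Ppp1r1b*, the phosphatase inhibitor DARPP-32, from 19.6 ± 0.803 to 3.17 ± 0.389 FPKM. *Myl1*, a light chain of fast skeletal muscle, fell from 173 ± 6.37 to 32.5 ± 4.04 FPKM. *Mt2*, a metallothionein, was at 23.2, 29.1 and 30.2 FPKM in the E18.5d hearts and 5.93, 3.12 and 6.04 FPKM in the P7d hearts (log2 change -2.27, standard error 0.23, adjusted p = 5.12e-05). *Abat*, which breaks down GABA, fell from 14.5 ± 1.43 to 2.89 ± 0.155 FPKM, the imprinted *Zim1* from 10.3 ± 1.31 to 1.90 ± 0.44 FPKM, *Prss35* from 16.4 ± 0.765 to 3.70 ± 0.452 FPKM and *Usp50* from 6.28 ± 1.86 to 0.883 ± 0.375 FPKM. *Gm10197*, a short gene model without a known role at chr19:53371566-53371766 of GRCm38, fell from 64.4 ± 9.78 to 11.2 ± 8.70 FPKM, with P7d replicate 2 far under the others.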

How the data were processed

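RNA of 9 hearts was sequenced, and the authors deposited 1 table of FPKM values per gene and heart. The submitters' processing notes name STAR, GRCm38 and mm10. The counting tool and annotation are not given in the sources used here. The kit does not mark strand, so overlapping genes (*Snrpn* and *Snurf*) and close copies (H2 genes) can share fragments.

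log2(FPKM + 1) of all 9 hearts was fitted with limma 3.58.1 (eBayes with a trend) in R 4.3.3. Tables were made with Python 3.11.15 and pandas 2.3.3. On simulated data for P7d against E18.5d (13537 genes), the fit called 45 of 100 genes changed by 0.5 log2 and 87 of 100 changed by 1 log2. Only 200 genes were changed in that simulation, against 6775 called in the hearts, and the second condition was not applied. The shares recovered there are therefore not those of the real fit or of genes counted as risen or fallen. Depth was read from low FPKM values, of which 76.2 to 81.1% were whole multiples of 1 fragment in the 6 hearts, so no count test was made. Positions are from GENCODE vM21 (GRCm38), which held 48144 of the 48820 identifiers.

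For each list, the 3 largest rises and falls without overlap among protein-coding genes and imprinted RNAs outside the heatmap lists were named, and the defining genes whatever their result. Outside all lists, 15 in each direction with at least 5 FPKM were named. Members and lists were chosen with earlier results of these data known. The p-values measure the spread between these samples, which may be technical. Alternatives were a pseudocount of 0.1, other limits on low values, 4 rescalings, eBayes without trend, the 6 hearts alone, a replicate block, a term for *Xist* and leaving out each heart. Some genes that this rule names are not reported here.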

Additional observations from a re-analysis of the deposited data

How the results depend on the processing

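The genes counted as risen or fallen already had to pass after rescaling and, on the deposited scale, without any 1 heart. Of these 1249 and 2805 genes, 1125 and 2805 also passed with columns of equal sum, 1249 and 2726 with equal sums of protein-coding nuclear genes, and 1245 and 2728 after quantile normalization. With a log2 change of at least 1 asked for as well, 260 and 360 remained. Calls at the threshold alone moved with the scale. With columns of equal sum, 1268 genes were higher and 4479 lower. The counts were 2756 and 2909 with equal sums of protein-coding nuclear genes, 2927 and 2869 with median of ratios, and 2939 and 2990 after quantile normalization. At least 1 log2 unit left 659 calls, 270 higher and 389 lower. Leaving out 1 heart gave 1417 to 1847 higher and 4110 to 5348 lower. Of 274 named genes, 256 kept direction and side of the threshold in each of the 20 alternatives in which they were tested, and 43 of the 274 were not tested under the limit of 5 FPKM. Named genes that changed sign were all without a call. *Actc1* was at 0.15 log2 with equal protein-coding sums and 0.17 with median of ratios, *Myh11* at 0.015, 0.029 and 0.0073 and *Pdgfra* at 0.15, 0.16 and 0.13 under these 2 and quantile normalization, and *Syvn1* at -0.034 with columns of equal sum. Without 1 heart the log2 change ran from -0.028 to 0.44 for *Acta1*, -0.063 to 0.037 for *Actc1*, -0.033 to 0.12 for *Igf1*, -0.37 to 0.095 for *Myh11*, -0.047 to 0.0099 for *Pdgfra* and -0.089 to 0.065 for *Syvn1*.

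Replicate numbers did not pair the hearts: deviations of same-numbered hearts correlated at -0.041, -0.032 and 0.10. A fit with the replicate number as a block called 1709 genes higher and 5006 lower, 6715 in all, and kept all 1249 and 2805.

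Depth limits low genes: at 25.5 times 1e6 fragments, 1 fragment on 1 kilobase is 0.0392 FPKM. Fragment counts were not given, so counting error enters the tests only as part of the spread between hearts.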

Other observations

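By the biotypes of GENCODE vM21, 12050 of the 13537 genes tested were protein-coding, of which 1190 rose and 2522 fell, with a median log2 change of -0.16. Of 168 long intergenic RNAs (lincRNA), 9 rose and 46 fell, with a median of -0.29. Of 194 antisense RNAs, 12 rose and 32 fell, and their fragments cannot be told from those of the opposite gene. Of 306 processed pseudogenes, the copies of mRNAs in the genome, 5 rose and 41 fell (median -0.34). Of 377 models that await experimental proof, 2 rose and 98 fell (median -0.36). The shares of processed pseudogenes and antisense RNAs that fell are under that of all genes (20.7%). Of 18 unprocessed pseudogenes, 5 rose and 1 fell (median 0.27), and of 12 small nuclear RNAs none met the conditions (median 1.41). Both mitochondrial ribosomal RNAs rose, with a median of 1.05, and both immunoglobulin constant genes rose, with a median of 1.62. The 1 T cell receptor constant gene tested fell (log2 change -0.86). The nuclear protein-coding share of the FPKM total lay between 36.5 and 37.3% at E18.5d and between 30.2 and 33.5% at P7d, and these ranges did not overlap.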
